A study of Arabidopsis thaliana with 12 samples.

Results

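The genes of the replication fork in germinating Arabidopsis thaliana seeds were followed as 10 loci chosen by name, out of 36795 loci in the count table: the 6 subunits of the MCM helicase, MCM2 (AT1G44900), MCM3 (AT5G46280), MCM4 (AT2G16440), MCM5 (AT2G07690), MCM6 (AT5G44635) and MCM7 (AT4G02060, listed as PRL in RefSeq), both sliding clamp genes, PCNA1 (AT1G07370) and PCNA2 (AT2G29570), and 2 ribonucleotide reductase genes, RNR1 (AT2G21790) for the large subunit and TSO2 (AT3G27060) for a small subunit. All 10 passed the filter on low counts, as did 18413 loci in all. Polyadenylated RNA was sequenced from seeds of the mutant odr1-2 in 300 mM mannitol, odr1-2 in water, the wild type Col-0 in 300 mM mannitol and Col-0 in water, with 3 libraries in each of these 4 groups. Mannitol stood for osmotic stress and water was its control. All groups shared the same history of after-ripening, 2 days in the cold at 4°C and then 12 h of imbibition. The labels call the 3 libraries of a group biological replicates and do not describe the molecular lesion of the odr1-2 allele, and the ODR1 transcript was not analysed here.

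Before a cell copies its DNA, MCM2 to MCM7 are loaded as a ring of 6 different subunits onto origins, and this ring becomes the helicase that opens the double strand. PCNA is a ring that slides along DNA and holds the polymerases to it, and ribonucleotide reductase makes the deoxyribonucleotides they use. In plants the genes for these proteins are known targets of E2F transcription factors, and in a germinating seed the embryo enters the cell cycle around the time the radicle emerges.

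Because E2F factors are the textbook regulators of this gene set, the 250 bases before the annotated start of each gene were read from the RefSeq annotation and genome of the build TAIR10.1. They were searched on both strands for 8 E2F words (TTTCCCGC, TTTCCCGG, TTTCGCGC, TTTCGCGG, TTTGCCGC, TTTGCCGG, TTTGGCGC and TTTGGCGG) and for 2 site II words (TGGGCC and TGGGCT), the second being elements bound by TCP transcription factors in many genes of growing cells. An E2F word stood before 5 of the 10 genes, MCM2, MCM3, MCM4, MCM5 and MCM6, against 2.80% of 27443 protein-coding genes (768). A site II word stood before 7 of the 10, the same 5 genes with PCNA2 and RNR1, against 19.2% of the protein-coding genes (5264). These matches describe letters and not binding, and no E2F word overlapped a site II word in the 10 windows.

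The stretches with the E2F words are printed 5′ to 3′ along the gene's own strand, with the words in capitals.
MCM2, chr1:16970184-16970213, plus strand: caaattggcgccaataTTTCCCGCctaatc
MCM3, chr5:18773742-18773892, minus strand: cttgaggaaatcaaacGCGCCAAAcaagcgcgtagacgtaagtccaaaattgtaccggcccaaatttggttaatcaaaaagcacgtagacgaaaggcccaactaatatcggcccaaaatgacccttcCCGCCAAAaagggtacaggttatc
MCM4, chr2:7130741-7130780, minus strand: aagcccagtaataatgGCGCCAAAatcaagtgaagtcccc
MCM5, chr2:3527501-3527535, minus strand: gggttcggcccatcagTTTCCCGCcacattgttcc
MCM6, chr5:18010690-18010729, minus strand: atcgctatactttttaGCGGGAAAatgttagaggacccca

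The MCM2 word began 14 bases before the start, the MCM5 word 19, the MCM4 word 35 and the MCM6 word 46. MCM3 held 2 words, 170 and 59 bases before its start, with 3 site II words at 130, 92 and 77 bases, of which all lie in the printed stretch. MCM7, PCNA1, PCNA2, RNR1 and TSO2 had none of the 8 E2F words in this window, and MCM7, PCNA1 and TSO2 had no site II word either. For comparison, the 60 bases next to the start of MCM7 and PCNA1, which hold neither kind of word, are printed in lower case throughout.
MCM7, chr4:900576-900635, plus strand: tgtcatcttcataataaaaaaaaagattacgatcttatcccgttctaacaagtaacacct
PCNA1, chr1:2262977-2263036, plus strand: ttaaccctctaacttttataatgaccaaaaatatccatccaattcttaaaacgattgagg

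**Figure D1:**
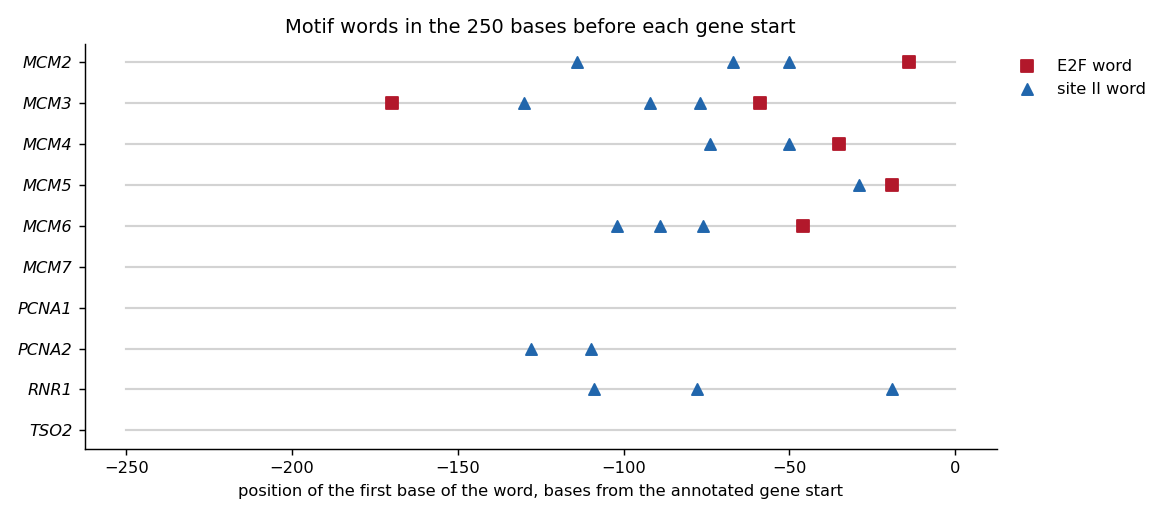
Positions of the E2F words (squares) and site II words (triangles) in the 250 bases before the annotated start of each of the 10 genes, given as the distance of the first base of the word from the start. E2F words stand within 60 bases of the start in MCM2 to MCM6, MCM3 has a further one at 170 bases, and the lines of MCM7, PCNA1 and TSO2 are empty.

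The libraries held between 10060020 and 13693166 gene counts, and the 18413 tested genes held at least 99.9% of each. Raw counts of the 10 genes ran from 28 (PCNA1) to 3886 (RNR1) per library, so counting error was largest for PCNA1 and MCM6. Col-0 mannitol replicate 2 stood apart over all genes: its counts differed from those of the other 2 libraries of its group by a chi-square of 4.48 and 5.75 per degree of freedom, against 2.01 to 2.80 for the other 10 pairs of replicates. Without it, the number of the 10 genes lower in mannitol was 10 in odr1-2 and 8 in Col-0, against 9 and 8 with all libraries. In odr1-2 against Col-0 without it, 3 were lower and 1 higher in mannitol, against 3 and 0, and 6 were lower and 1 higher in water, as with all. The seed label was checked with the storage protein genes CRA1 and CRU3 and the oil body gene OLEO1, all present in every library. No 50-base window of the exons of the 10 genes occurs elsewhere in the genome, including those of PCNA1 and PCNA2, whose coding sequences match at 85.6% of 792 aligned bases. PCNA2 shares 279 exon bases (23.6% of its exons) with the enolase gene ENOC on the other strand, MCM7 shares 21 with the sugar transporter gene STP7 on the other strand, and TSO2 shares 3 with AT3G27050. Whether counting used strand is not given in the sources used here, so the counts of such pairs are uncertain in that part.

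Per transcript length (the authors' TPM values, which allow levels of different genes to be compared), ribonucleotide reductase genes stood highest and MCM6 lowest in each group. RNR1 averaged 84.5 ± 1.98 TPM in odr1-2 in mannitol, 113.9 ± 2.06 in odr1-2 in water, 161.2 ± 9.50 in Col-0 in mannitol and 162.6 ± 5.62 in Col-0 in water (SD, n = 3 each). TSO2 came second, with 66.4 ± 1.92, 79.1 ± 6.83, 62.1 ± 6.22 and 66.0 ± 1.98 TPM in the same order of groups, and PCNA2 came next, with 16.0 ± 1.44, 27.8 ± 0.306, 27.4 ± 0.963 and 39.8 ± 2.98 TPM. The libraries of these 3 genes did not overlap with each other within any group. MCM6 averaged 2.36 ± 0.430, 6.87 ± 0.284, 2.85 ± 0.194 and 7.54 ± 0.837 TPM, below every library of the next gene up in each group. Between them, MCM2, MCM3, MCM4, MCM5, MCM7 and PCNA1 lay close together: all neighbours in their order overlapped, except MCM5 with MCM4 and MCM4 with MCM7 in odr1-2 in water.

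The helicase and clamp genes were lower in mannitol than in water in both genotypes. In odr1-2 seeds, 9 of the 10 genes fell in mannitol, where 21.3% of the 18413 genes tested fell, 21.2% rose and 42.5% did either. In Col-0 seeds 8 of the 10 fell, where 21.4% of all genes fell, 21.0% rose and 42.4% did either. No member rose in either genotype by the edgeR quasi-likelihood test, none rose at an unadjusted p under 0.05, and none rose with DESeq2, limma-voom or limma-trend. The median log2 fold change of the 10 genes was -0.91 in odr1-2 and -1.14 in Col-0, beside medians of -0.00 and 0.00 over all genes tested. All values between samples are CPM, counts scaled to equal library size, on TMM-scaled library sizes, which is the composition-corrected size edgeR uses, and changes are log2 fold changes ± SE with Benjamini-Hochberg adjusted p over all genes tested. Since RNA of intact seeds was sequenced in bulk, fewer cells with a transcript and less of it per cell cannot be told apart.

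MCM2, a helicase subunit, had 14.99, 12.0 and 11.8 CPM in the 3 odr1-2 libraries in mannitol, against 29.2, 24.9 and 26.5 CPM in odr1-2 in water. Its level in Col-0 in mannitol was 13.9, 11.1 and 15.02 CPM, against 26.4, 25.4 and 31.0 CPM in Col-0 in water. Every mannitol library lay below every water library, and the fall was the same size in both genotypes, -1.05 ± 0.12 in odr1-2 (edgeR adjusted p = 1.6e-11) and -1.05 ± 0.12 in Col-0 (edgeR adjusted p = 1.1e-11). MCM5, another subunit, had 11.2, 10.9 and 9.16 CPM in odr1-2 in mannitol, against 21.6, 20.8 and 19.97 CPM in odr1-2 in water. In Col-0 it had 12.4, 10.4 and 8.16 CPM in mannitol, against 20.2, 21.3 and 22.0 CPM in water. These changes were -0.99 ± 0.13 in odr1-2 (edgeR adjusted p = 1.6e-09) and -1.04 ± 0.13 in Col-0 (edgeR adjusted p = 3.2e-10), again without overlap.

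MCM6, the subunit with the lowest level, had 4.69, 5.50 and 3.77 CPM in odr1-2 in mannitol, against 12.6, 12.1 and 13.1 CPM in odr1-2 in water. In Col-0 the values were 5.61, 5.41 and 5.04 CPM in mannitol, against 15.3, 12.5 and 13.1 CPM in water. Its change was -1.43 ± 0.17 in odr1-2 (edgeR adjusted p = 4.9e-11), the largest fall of a helicase subunit there, and -1.35 ± 0.16 in Col-0 (edgeR adjusted p = 1.3e-10). MCM3 had 9.20, 7.42 and 7.45 CPM in odr1-2 in mannitol, against 14.2, 18.3 and 17.4 CPM in odr1-2 in water. The Col-0 values were 8.28, 8.11 and 9.20 CPM in mannitol, against 21.9, 19.8 and 21.8 CPM in water. The mannitol and water libraries stood apart in both, with -1.06 ± 0.14 in odr1-2 (edgeR adjusted p = 2.0e-09) and -1.31 ± 0.14 in Col-0 (edgeR adjusted p = 5.4e-13).

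MCM4 had 9.93, 13.8 and 10.5 CPM in odr1-2 in mannitol, against 19.97, 20.5 and 20.6 CPM in odr1-2 in water. Col-0 seeds had 9.80, 11.3 and 12.8 CPM in mannitol, against 26.4, 27.8 and 24.8 CPM in water. It fell by 0.83 ± 0.13 in odr1-2 (edgeR adjusted p = 8.1e-08) and by 1.22 ± 0.12 in Col-0 (edgeR adjusted p = 2.4e-13) on the log2 scale, with no overlap between media. MCM7 had 9.47, 8.80 and 8.53 CPM in odr1-2 in mannitol, against 17.0, 16.8 and 13.4 CPM in odr1-2 in water. Levels in Col-0 were 8.28, 6.11 and 6.43 CPM in mannitol, against 19.0, 20.7 and 20.6 CPM in water. STP7, which overlaps MCM7 by 21 bases, changed by -0.32 in odr1-2 and -0.15 in Col-0. MCM7 gave the smallest fall of the 6 subunits in odr1-2, -0.81 ± 0.14 (edgeR adjusted p = 1.9e-06), and the largest in Col-0, -1.54 ± 0.14 (edgeR adjusted p = 8.1e-15).

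Of the clamp genes, PCNA1 had 2.57, 3.85 and 3.23 CPM in odr1-2 in mannitol, against 8.67, 8.76 and 10.1 CPM in odr1-2 in water. In Col-0 it had 5.14, 5.23 and 5.64 CPM in mannitol, against 10.9, 12.5 and 14.6 CPM in water. The highest mannitol library of either genotype was below the lowest water library of that genotype, with -1.51 ± 0.19 in odr1-2 (edgeR adjusted p = 7.0e-10) and -1.25 ± 0.17 in Col-0 (edgeR adjusted p = 5.8e-09). PCNA2, the more abundant clamp gene, had 13.8, 11.5 and 12.9 CPM in odr1-2 in mannitol, against 20.3, 20.6 and 21.0 CPM in odr1-2 in water. The Col-0 values were 19.7, 22.2 and 21.0 CPM in mannitol, against 28.0, 28.0 and 31.8 CPM in water. Both genotypes separated the media, and the changes were smaller than those of PCNA1, at -0.69 ± 0.11 in odr1-2 (edgeR adjusted p = 6.3e-07) and -0.48 ± 0.10 in Col-0 (edgeR adjusted p = 9.0e-05). ENOC, which overlaps PCNA2, changed by -0.51 in odr1-2 and -0.38 in Col-0, and its part in the PCNA2 counts was not tested.

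The reductase genes moved less. RNR1 had 175.6, 170.3 and 168.0 CPM in odr1-2 in mannitol, against 209.8, 213.8 and 220.2 CPM in odr1-2 in water. Col-0 seeds had 320.5, 300.3 and 315.1 CPM in mannitol, against 312.7, 293.3 and 303.0 CPM in water. The media stood apart in odr1-2, with -0.33 ± 0.05 (edgeR adjusted p = 3.9e-08), and overlapped in Col-0, where the change was 0.04 ± 0.05 with a 95% interval from -0.05 to 0.13 (edgeR adjusted p = 0.488). TSO2 had 78.0, 73.9 and 75.9 CPM in odr1-2 in mannitol, against 91.1, 81.9 and 78.9 CPM in odr1-2 in water. Levels in Col-0 were 64.8, 77.3 and 61.8 CPM in mannitol, against 66.9, 71.3 and 69.9 CPM in water. TSO2 passed the test in neither genotype, with -0.14 ± 0.07 in odr1-2 (95% interval -0.28 to -0.01, edgeR adjusted p = 0.0852) and -0.03 ± 0.07 in Col-0 (95% interval -0.17 to 0.11, edgeR adjusted p = 0.767). Its fall in odr1-2 passed without Col-0 mannitol replicate 2 (-0.14, edgeR adjusted p = 0.0447), without odr1-2 water replicate 3 (-0.19, edgeR adjusted p = 0.0471), with only the groups compared in the fit, with total count scaling and on TPM.

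**Figure D2:**
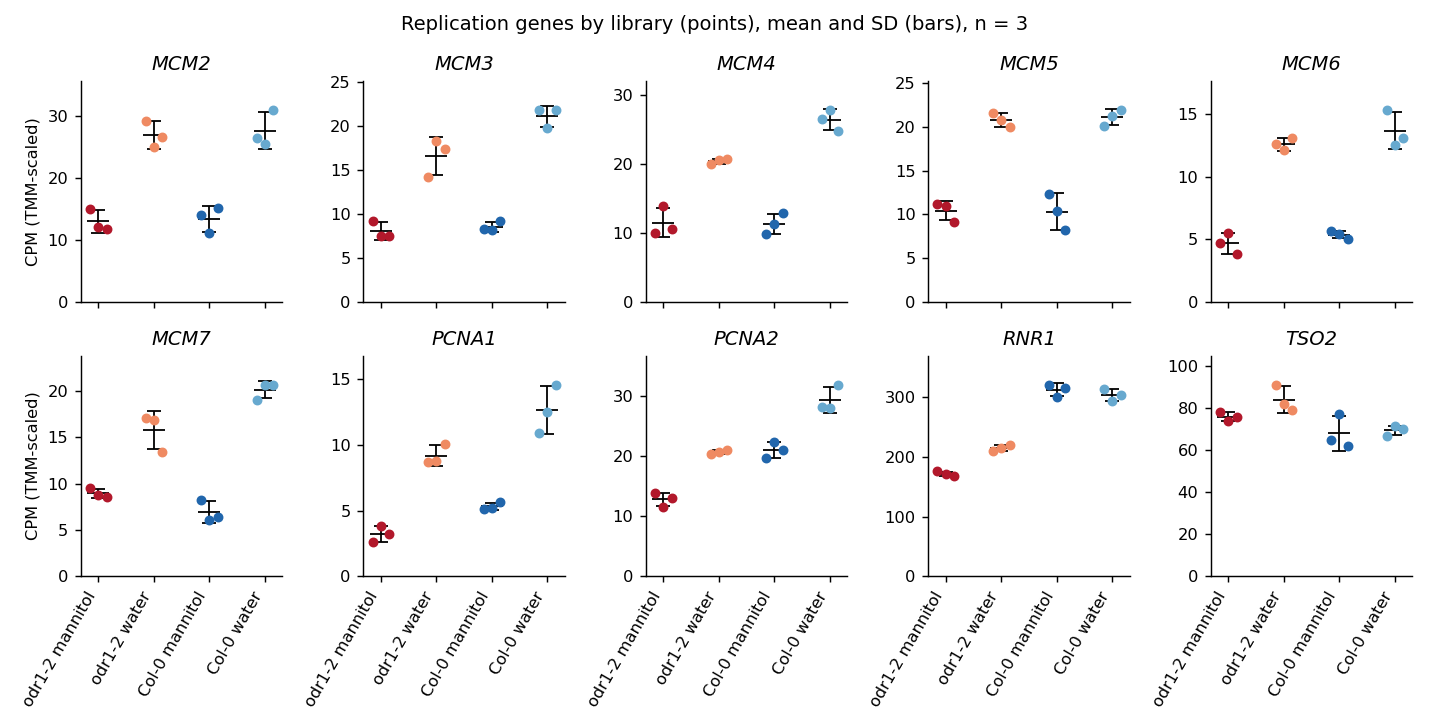
Counts scaled to equal library size (CPM) on TMM-scaled library sizes for each of the 10 genes (linear axes from 0), with a point for each library and bars for the mean and SD of the 3 libraries of a group, in the order odr1-2 mannitol, odr1-2 water, Col-0 mannitol, Col-0 water. For MCM2 to MCM7 and both PCNA genes the mannitol points lie below the water points of their genotype, while RNR1 in Col-0 runs from 300.3 to 320.5 in mannitol and from 293.3 to 312.7 in water.

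All 17 falls held under each of the 22 alternative settings, which include leaving out each library in turn. The calls over all genes split differently by scaling in odr1-2: 3907 genes rose and 3919 fell with TMM scaling, against 3068 and 4957 with total count scaling. The seed storage markers moved with mannitol too: the summed CPM of CRA1, CRU3 and OLEO1 was 33377 to 34006 in odr1-2 in mannitol, against 19726 to 20099 in odr1-2 in water, and 20454 to 21766 in Col-0 in mannitol, against 8117 to 8233 in Col-0 in water. Their part in the falls of the replication genes was not tested.

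In the mutant against the wild type, the clamp genes and RNR1 were lower in both media. In mannitol, 3 of the 10 genes were lower in odr1-2 than in Col-0, where 19.6% of all genes tested were lower, and none was higher by edgeR or DESeq2, where 20.5% of all genes were and 40.1% differed either way. At an unadjusted p under 0.05, 2 were higher. In water, 6 of the 10 were lower in odr1-2, where 18.6% of all genes were lower, and 1 was higher, where 20.4% were and 39.0% differed either way. The median log2 fold change of the 10 genes was -0.07 in mannitol and -0.35 in water, beside -0.00 over all genes tested in both. These comparisons use the same libraries as those between media, so their values are not independent of the ones above.

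RNR1, PCNA2 and PCNA1 were lower in odr1-2 in both media. With the values given above, the RNR1 difference was -0.86 ± 0.05 in mannitol (edgeR adjusted p = 1.9e-25) and -0.50 ± 0.05 in water (edgeR adjusted p = 1.8e-14). PCNA2 was lower in odr1-2 by -0.72 ± 0.12 in mannitol (edgeR adjusted p = 3.6e-07) and by -0.51 ± 0.10 in water (edgeR adjusted p = 4.2e-05). It shares 279 exon bases with ENOC on the other strand, and the part of ENOC in this difference was not tested. PCNA1 was lower by -0.73 ± 0.21 in mannitol (edgeR adjusted p = 0.00353) and by -0.46 ± 0.16 in water (edgeR adjusted p = 0.0144). For all 3 genes no odr1-2 library reached the lowest Col-0 library of the same medium. The share of all genes tested whose libraries separate in this way is not given here, between genotypes or between media. The PCNA1 difference in water no longer passed without Col-0 water replicate 3 (-0.35, edgeR adjusted p = 0.140), without odr1-2 water replicate 1 (-0.42, edgeR adjusted p = 0.0523) or without odr1-2 water replicate 2 (-0.43, edgeR adjusted p = 0.0584).

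TSO2 ran the other way. It was higher in odr1-2 than in Col-0 in water, by 0.27 ± 0.07 (edgeR adjusted p = 0.000869), with no overlap between the groups. In mannitol the difference was 0.16 ± 0.07, the groups overlapped, and the test was not passed (95% interval 0.02 to 0.30, edgeR adjusted p = 0.0624). Without Col-0 mannitol replicate 2, the highest of its group for TSO2 and the library that stood apart, the difference in mannitol was 0.26 (edgeR adjusted p = 0.00114), and it also passed with the stricter filter.

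Among the helicase subunits, 3 of 6 were lower in odr1-2 in water, where 18.6% of all genes tested were lower. None passed in mannitol, where 19.6% of all genes tested were lower and 20.5% higher. In water the differences were -0.37 ± 0.11 for MCM4 (edgeR adjusted p = 0.00653), -0.36 ± 0.13 for MCM7 (edgeR adjusted p = 0.0187) and -0.34 ± 0.12 for MCM3 (edgeR adjusted p = 0.0218), each without overlap. MCM2, MCM5 and MCM6 gave -0.04 ± 0.11, -0.03 ± 0.12 and -0.12 ± 0.14, their libraries overlapped, and the 95% intervals ran from -0.26 to 0.17, from -0.26 to 0.20 and from -0.40 to 0.17. In mannitol, MCM2, MCM3, MCM4, MCM5 and MCM6 gave -0.05 ± 0.13, -0.09 ± 0.15, 0.02 ± 0.14, 0.02 ± 0.14 and -0.20 ± 0.19, all with overlapping libraries. MCM7 alone had its 3 odr1-2 libraries above the 3 Col-0 libraries in mannitol, by 0.37 ± 0.16, and missed the threshold (95% interval 0.06 to 0.68, edgeR adjusted p = 0.0563). It passed there without Col-0 mannitol replicate 1 (0.51, edgeR adjusted p = 0.0180) and with the stricter filter.

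MCM4 kept its call in water in each alternative, and MCM3 and MCM7 did not. MCM3 gave -0.32 without Col-0 water replicate 1 (edgeR adjusted p = 0.0723), -0.32 without Col-0 water replicate 3 (edgeR adjusted p = 0.0774) and -0.24 without odr1-2 water replicate 1 (edgeR adjusted p = 0.154). MCM7 gave -0.34 without Col-0 water replicate 2 (edgeR adjusted p = 0.0638), -0.34 without Col-0 water replicate 3 (edgeR adjusted p = 0.0629) and -0.25 without odr1-2 water replicate 3 (edgeR adjusted p = 0.181). Both also missed the threshold in the fits on TPM. Without Col-0 water replicate 3, the count of genes lower in odr1-2 in water was 3 of 10.

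Of 5 markers of the endosperm, the tissue around the embryo, 4 were tested. Of all genes tested, 20.5% were higher and 19.6% lower in odr1-2 than in Col-0 in mannitol, and 20.4% higher and 18.6% lower in water. Of the 4 endosperm markers tested, 3 were higher and 1 lower in mannitol, and 3 were higher in water. EPR1, EXPA2 and MAN7 were the higher ones, by 1.35, 0.72 and 1.04 in mannitol and by 1.44, 1.04 and 1.55 in water. ICE1 went the other way, with -0.28 ± 0.05 in mannitol (edgeR adjusted p = 3.8e-06) and -0.11 ± 0.05 in water, which missed the threshold. The summed CPM of the list was 13852 to 15098 in odr1-2 in mannitol, against 4228 to 7015 in Col-0 in mannitol, and 11504 to 12665 in odr1-2 in water, against 4525 to 5055 in Col-0 in water. Most of each sum was EPR1, which averaged 12721 CPM in odr1-2 in mannitol, against 4982 in Col-0 in mannitol, and 10236 in odr1-2 in water, against 3779 in Col-0 in water. Col-0 mannitol replicate 2 gave the lowest sum of its group, and the other 2 libraries gave 6730 and 7015. RGE1 was at 0 in both odr1-2 groups. RGE1 was also at 0 in Col-0 in mannitol. The 6 seed coat markers summed to 22.1 to 24.7 CPM in odr1-2 in mannitol, against 23.8 to 24.7 in Col-0 in mannitol, and to 21.3 to 24.8 CPM in odr1-2 in water, against 24.1 to 26.6 in Col-0 in water. Of the 4 tested, 1 was higher and 1 lower in odr1-2 in mannitol, and 1 was lower in water, beside the shares of all genes given above. GL2 averaged 3.40 CPM in odr1-2 and 6.23 in Col-0 in mannitol, and 5.78 and 8.78 in water. MUM2 averaged 1.76 CPM in odr1-2 and 0.684 in Col-0 in mannitol, and 0.847 and 0.631 in water. BAN was at 0 in each group other than odr1-2 in mannitol, where it had 1 count. The part of the endosperm and seed coat markers in the genotype differences of the replication genes was not tested.

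**Figure D3:**
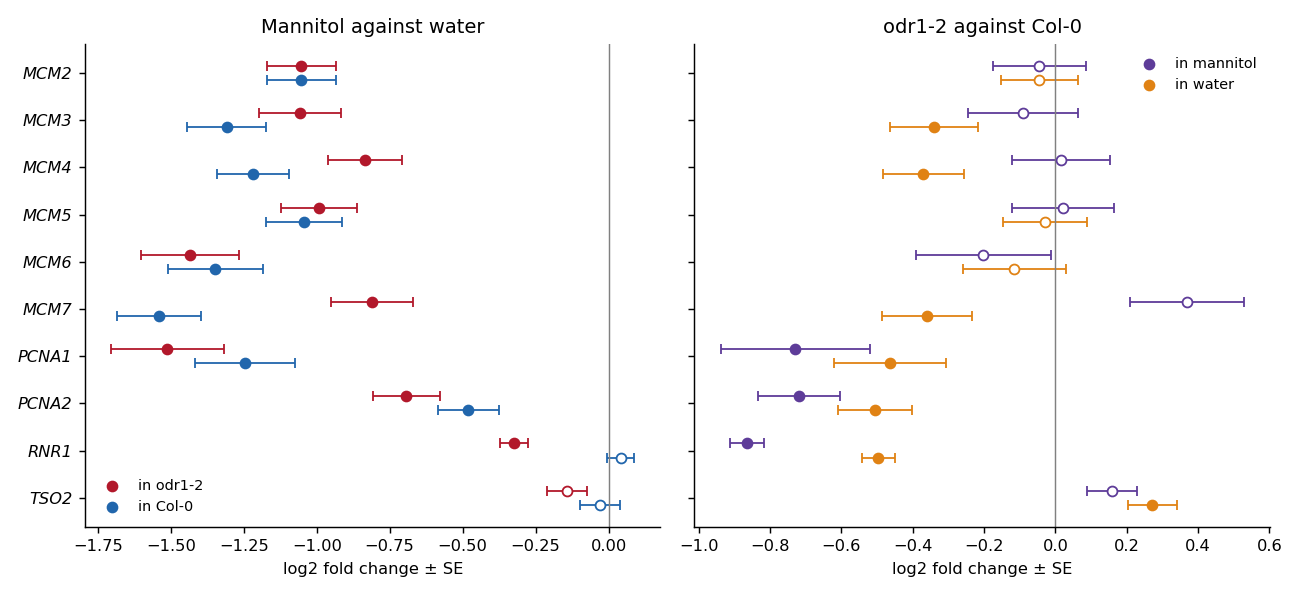
Log2 fold changes ± SE of the 10 genes in mannitol against water (left, odr1-2 in red and Col-0 in blue) and in odr1-2 against Col-0 (right, in mannitol in purple and in water in orange). Filled points passed an adjusted p of 0.05 and open points did not; on the left only TSO2 in both genotypes and RNR1 in Col-0 are open, and on the right RNR1 in mannitol lies farthest from 0, at -0.86.

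Whether the mannitol change differed in the mutant was asked with the interaction, the mannitol change in odr1-2 minus that in Col-0. It passed for 2 of the 10 genes: MCM7 was higher, where 1.08% of all genes tested were, and RNR1 was lower, where 2.67% were and 3.75% passed either way. RNR1 gave -0.37 ± 0.07 (edgeR adjusted p = 5.5e-05), with a change of -0.33 in odr1-2 beside a change of 0.04 in Col-0. This interaction passed under every alternative, with values between -0.42 and -0.34. MCM7 gave 0.73 ± 0.20 (edgeR adjusted p = 0.0215), with -0.81 in odr1-2 beside -1.54 in Col-0. The MCM7 call was lost without Col-0 water replicate 2 (0.71, edgeR adjusted p = 0.0544), Col-0 water replicate 3 (0.71, edgeR adjusted p = 0.0545), Col-0 mannitol replicate 2 (0.65, edgeR adjusted p = 0.0631), Col-0 mannitol replicate 3 (0.68, edgeR adjusted p = 0.0704), odr1-2 water replicate 3 (0.61, edgeR adjusted p = 0.106) or odr1-2 mannitol replicate 1 (0.69, edgeR adjusted p = 0.0653), and on TPM.

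The other 8 genes did not pass the interaction test. Their intervals are for each gene alone and, unlike the adjusted p, take no account of the number of genes tested. MCM4 gave 0.39 ± 0.18 (95% interval 0.04 to 0.74, edgeR adjusted p = 0.299) and MCM3 0.25 ± 0.20 (-0.14 to 0.64). MCM2 gave -0.00 ± 0.16 (-0.32 to 0.32), MCM5 0.05 ± 0.19 (-0.31 to 0.41) and MCM6 -0.09 ± 0.24 (-0.55 to 0.38). PCNA1 gave -0.27 ± 0.26 (-0.78 to 0.25), PCNA2 -0.21 ± 0.15 (-0.52 to 0.09) and TSO2 -0.11 ± 0.10 (-0.30 to 0.08).

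Because the 6 MCM proteins work as a ring with a single copy of each, their transcripts were also set against each other per length. The summed TPM of MCM2 to MCM7 was 28.9 ± 2.29 in odr1-2 in mannitol, 62.1 ± 1.70 in odr1-2 in water, 29.8 ± 2.37 in Col-0 in mannitol and 72.4 ± 1.499 in Col-0 in water (SD, n = 3 each). The sums in mannitol overlapped between genotypes, from 26.3 to 30.5 in odr1-2 and from 27.3 to 32.0 in Col-0, while those in water did not, from 60.5 to 63.9 in odr1-2 and from 71.0 to 74.0 in Col-0. The most abundant subunit exceeded the least abundant by 2.78 ± 0.193 times in odr1-2 in mannitol, 1.958 ± 0.1495 times in odr1-2 in water, 2.41 ± 0.307 times in Col-0 in mannitol and 2.06 ± 0.268 times in Col-0 in water. MCM7 made up 17.3 ± 0.908% of the sum in odr1-2 in mannitol, 15.2 ± 1.74% in odr1-2 in water, 13.6 ± 1.66% in Col-0 in mannitol and 16.9 ± 0.776% in Col-0 in water. In mannitol no Col-0 library reached the lowest odr1-2 library for this share. These shares and ratios are given by library and were not tested.

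The transcripts of the clamp and reductase genes were also set against each other per length, by library and without a test. PCNA1 in odr1-2 in mannitol rested on 28 to 42 counts per library. PCNA2 overlaps ENOC, whose part in the PCNA2 level was not tested. PCNA1 gave 21.0 ± 4.76% of the PCNA1 and PCNA2 TPM in odr1-2 in mannitol, 31.7 ± 1.51% in odr1-2 in water, 21.0 ± 1.148% in Col-0 in mannitol and 31.0 ± 1.88% in Col-0 in water, so the share was lower in each mannitol library than in each water library. The ratio of RNR1 to TSO2 TPM was 1.27 ± 0.0262 in odr1-2 in mannitol, 1.45 ± 0.138 in odr1-2 in water, 2.62 ± 0.373 in Col-0 in mannitol and 2.47 ± 0.160 in Col-0 in water. It was lower in all 6 odr1-2 libraries (1.25 to 1.57) than in the 6 Col-0 libraries (2.19 to 2.87). RNR2A, the second small subunit gene, had 86.8 ± 4.25, 121.3 ± 6.73, 113.6 ± 5.22 and 149.7 ± 4.56 TPM in the same order of groups. Its changes were -0.38 ± 0.06 in odr1-2 and -0.34 ± 0.05 in Col-0 with mannitol, and -0.32 ± 0.06 in mannitol and -0.29 ± 0.05 in water in odr1-2 against Col-0, each past the threshold by the edgeR test. RNR2A shares 153 exon bases (9.05%) with AT3G23570 on the other strand, which changed by 0.23 and 0.39 with mannitol in odr1-2 and Col-0, and by -0.52 in mannitol and -0.37 in water in odr1-2 against Col-0. TSO2 thus made up 43.4 ± 1.85% of the TSO2 and RNR2A TPM in odr1-2 in mannitol, 39.5 ± 2.09% in odr1-2 in water, 35.3 ± 2.80% in Col-0 in mannitol and 30.6 ± 0.729% in Col-0 in water.

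**Figure D4:**
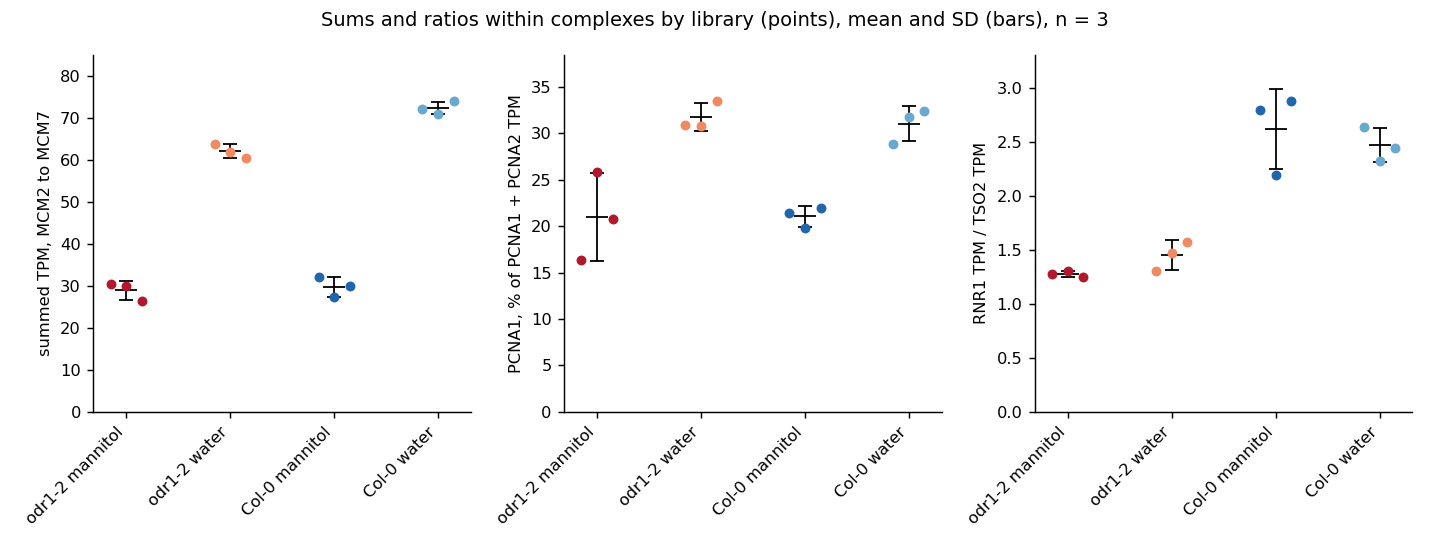
Summed TPM of MCM2 to MCM7 (left), PCNA1 as a percentage of PCNA1 plus PCNA2 TPM (middle) and the ratio of RNR1 to TSO2 TPM (right), with a point for each library and bars for the mean and SD (n = 3), for odr1-2 mannitol, odr1-2 water, Col-0 mannitol and Col-0 water. The first 2 panels separate mannitol from water, and the ratio of RNR1 to TSO2 separates odr1-2 (1.25 to 1.57) from Col-0 (2.19 to 2.87).

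The rest of the replication and cell cycle machinery was read from 10 lists of 98 genes, of which 79 were tested. With mannitol, 25 of the 79 fell and 6 rose in odr1-2, and 35 fell and 7 rose in Col-0, with median log2 fold changes of -0.18 and -0.33. These are 31.6% falling and 7.59% rising in odr1-2, and 44.3% falling and 8.86% rising in Col-0, beside 21.3% and 21.2% of all tested genes in odr1-2 and 21.4% and 21.0% in Col-0. Without Col-0 mannitol replicate 2, 27 fell and 6 rose in odr1-2, and 30 fell and 5 rose in Col-0. Origin recognition and licensing genes, which mark origins and load the MCM ring, had 5 of 10 tested genes falling in odr1-2 (median -0.72) and 6 falling and 1 rising in Col-0 (median -1.12), beside medians of -1.02 and -1.26 for MCM2 to MCM7. CDT1A, a loader of the ring, changed by -1.31 ± 0.20 in odr1-2 (edgeR adjusted p = 1.3e-07) and -1.22 ± 0.19 in Col-0 (edgeR adjusted p = 2.1e-07). CDT1B changed by -1.14 ± 0.21 in odr1-2, and the origin recognition subunits ORC2 and ORC6 by -1.36 ± 0.36 and -1.16 ± 0.35 in Col-0. CDC6, a further loader with few counts, changed by -1.96 ± 0.65 in odr1-2, a call lost without odr1-2 mannitol replicate 2 (-1.57, edgeR adjusted p = 0.0732).

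Of 9 tested genes that activate or accompany the helicase, 1 fell and 2 rose in odr1-2, and 2 fell and 1 rose in Col-0. Of all tested genes, 21.3% fell and 21.2% rose in odr1-2, and 21.4% fell and 21.0% rose in Col-0. ETG1, a replisome factor that binds the MCM complex, fell by 0.93 ± 0.16 in odr1-2 and by 1.03 ± 0.16 in Col-0, and MCM10 fell by 1.54 ± 0.47 in Col-0, all on the log2 scale. PSF2, a subunit of the GINS complex of the helicase, rose by 0.36 ± 0.13 in odr1-2 and by 0.40 ± 0.12 in Col-0, and the first of these was lost without odr1-2 water replicate 2 (0.32, edgeR adjusted p = 0.0679), odr1-2 mannitol replicate 1 (0.28, edgeR adjusted p = 0.112) or odr1-2 mannitol replicate 3 (0.29, edgeR adjusted p = 0.102), and with total count scaling or on TPM. Of the replicative polymerase and primase genes, 4 of 10 fell and 1 rose in odr1-2, and 6 fell and 1 rose in Col-0. The primase small subunit gene POLA3 changed by -0.68 ± 0.22 in odr1-2, a call lost without odr1-2 mannitol replicate 3 (-0.55, edgeR adjusted p = 0.0659), and by -1.65 ± 0.23 in Col-0. POLA2, of the same polymerase alpha complex, changed by -0.76 ± 0.15 in odr1-2 and -0.59 ± 0.15 in Col-0.

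Among the clamp loader, the single-strand binding RPA proteins, flap nuclease and ligase, 5 of 16 genes fell in odr1-2 and 8 in Col-0. Beside the counts of this and the next 2 lists, 21.3% of all tested genes fell in odr1-2 and 21.4% in Col-0. RPA70D changed by -1.62 ± 0.33 in odr1-2 and -1.97 ± 0.30 in Col-0, and RPA70B by -1.24 ± 0.37 in odr1-2 and -1.53 ± 0.34 in Col-0. Nucleotide supply genes other than RNR1 and TSO2 fell by smaller steps, 4 of 6 in odr1-2 and 5 of 6 in Col-0, among them DUT1, the dUTPase that keeps uracil out of DNA, with -0.47 ± 0.11 and -0.42 ± 0.10. All 3 genes of the chromatin assembly complex CAF-1 fell in odr1-2, with FAS1 at -1.24 ± 0.32 and FAS2 at -1.35 ± 0.43, and 2 of 3 fell in Col-0, with FAS1 at -1.38 ± 0.32. The FAS2 call was lost without odr1-2 mannitol replicate 1 (-0.96, edgeR adjusted p = 0.0871).

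Of 8 tested genes of the E2F pathway itself, 2 fell and 1 rose in odr1-2, and 1 fell and 1 rose in Col-0, where 42.5% and 42.4% of all tested genes were called either way. The gene that rose in both was E2F1. Its Col-0 call was lost without Col-0 water replicate 2 (0.35, edgeR adjusted p = 0.116) or Col-0 mannitol replicate 2 (0.38, edgeR adjusted p = 0.0758). Its odr1-2 call was lost without odr1-2 water replicate 3 (0.40, edgeR adjusted p = 0.0660), and both calls were lost on TPM. E2F3, known as E2Fa, changed by -0.92 ± 0.25 with mannitol in odr1-2 (edgeR adjusted p = 0.00211) and by -0.34 ± 0.22 in Col-0, which did not pass (edgeR adjusted p = 0.211), and the interaction of the 2 did not pass either (-0.58 ± 0.34, edgeR adjusted p = 0.461). DPA, a partner of E2F proteins, changed by -0.65 ± 0.15 in odr1-2 and by -0.44 ± 0.14 in Col-0, and the second call was lost without Col-0 mannitol replicate 1 (-0.33, edgeR adjusted p = 0.0826). In these libraries the genes of mitosis were scarcely counted: 2 of 10 B-type cyclin and Aurora kinase genes passed the filter. They were CYCB1;1, with 5.68 ± 1.07, 4.42 ± 0.589, 5.53 ± 0.994 and 4.28 ± 0.396 CPM in odr1-2 in mannitol, odr1-2 in water, Col-0 in mannitol and Col-0 in water, which passed no comparison, and AUR2. AUR2 shares 877 exon bases with AT2G25890 on the other strand, the mean levels of the pair were 231.2 and 230.3 CPM, and their changes ran alike, so the AUR2 counts cannot be told apart from those of its partner.

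Between genotypes, 18 of the 79 genes were lower and 7 higher in odr1-2 than in Col-0 in mannitol, and 23 were lower and 4 higher in water, with medians of -0.16 and -0.20. The lower ones are 22.8% of the 79 in mannitol, near the 19.6% of all tested genes, and 29.1% in water, beside 18.6%. The higher ones are 8.86% in mannitol, beside 20.5%, and 5.06% in water, beside 20.4%. Without Col-0 mannitol replicate 2, 19 were lower and 5 higher in mannitol, and 26 lower and 4 higher in water. In the clamp loader, RPA, flap nuclease and ligase list 7 of 16 were lower in mannitol and 9 of 16 in water, and among the other nucleotide supply genes 4 of 6 were lower in each medium. RFC2, a clamp loader subunit, differed by -0.48 ± 0.10 in mannitol and -0.43 ± 0.10 in water. POLD2, a subunit of polymerase delta that shares 224 exon bases with AT2G42130 on the other strand (-0.31 and -0.05), differed by -0.62 ± 0.13 and -0.72 ± 0.13, DUT1 by -0.51 ± 0.11 and -0.45 ± 0.10, and TK1b, a thymidine kinase, by -0.43 ± 0.08 and -0.36 ± 0.07. E2F3 was lower in odr1-2 in mannitol (-1.10 ± 0.25, edgeR adjusted p = 0.000242) and in water missed the threshold (-0.52 ± 0.22). The genes that follow went either way. Of the 8 tested E2F pathway genes, 1 was higher in odr1-2 in mannitol and 1 in water. ORC2 was higher in odr1-2 in mannitol, a call lost without Col-0 mannitol replicate 2 (0.93, edgeR adjusted p = 0.0554). Of 10 tested polymerase and primase genes, 3 were higher and 2 lower in mannitol, and 0 were higher and 3 lower in water. The cell cycle inhibitor gene SIM gave 0.74 ± 0.14 and 1.04 ± 0.14, but 249 of its exon bases (31.4%) are shared with AT5G04475 on the other strand. That partner had a mean level of 12.3 CPM, as did SIM, and differed by 1.04 and 0.98, so the SIM counts cannot be told apart from those of its partner. KRP6, of another inhibitor family, differed by -0.62 ± 0.12 and -0.39 ± 0.12. KRP2 was lower in water, at -1.16 ± 0.27, and missed the threshold in mannitol, at -0.71 ± 0.30 (edgeR adjusted p = 0.0565).

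**Figure D5:**
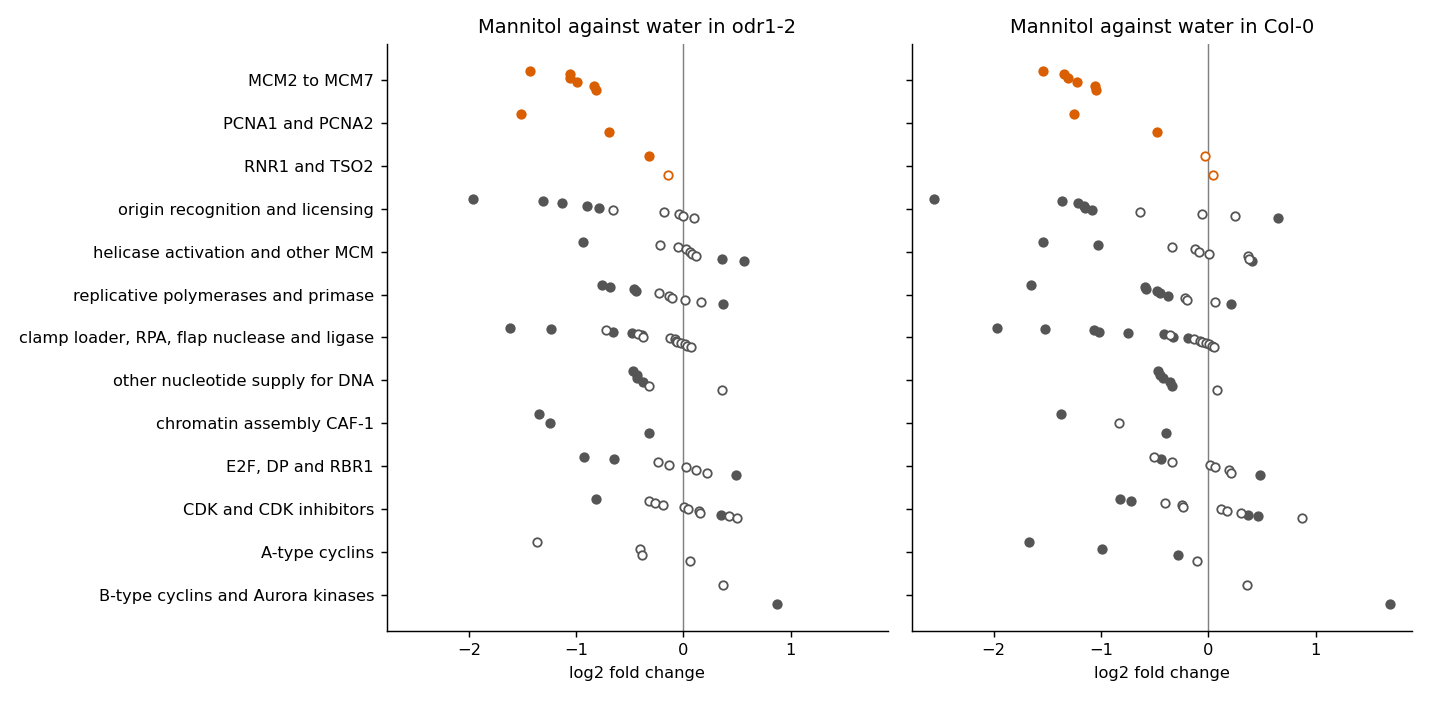
Log2 fold changes with mannitol of the 10 genes (orange, first 3 lines) and of the tested genes of 10 other replication and cell cycle lists (grey), in odr1-2 (left) and Col-0 (right). A point is a gene, filled where the adjusted p was under 0.05; the lowest points of origin recognition and licensing (CDC6, -1.96 in odr1-2 and -2.55 in Col-0) lie left of those of MCM2 to MCM7, and the rightmost filled point of the last line is AUR2, whose counts overlap those of another gene.

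The profile of the 10 genes over the 12 libraries was summarised as the mean of their standardized log2 CPM. Each of the 10 is part of this mean, which raises its own correlation with it, while genes outside the 10 are not. The agreement of each gene with this mean was highest for MCM6 (Pearson r = 0.979) and lowest for RNR1 (0.402) and TSO2 (0.156), with MCM2, MCM3, MCM4, MCM5, MCM7 and PCNA1 between 0.909 and 0.970 and PCNA2 at 0.819. Among 13994 other genes averaging 5 CPM or more, the 5 most like it were KCS10 (AT2G26250, r = 0.995), BXL2 (AT1G02640, 0.993), AT4G13505 (0.991), MIOX2 (AT2G19800, 0.990) and DIN10 (AT5G20250, 0.990). KCS10, which encodes an enzyme of the very-long-chain fatty acid pathway of the epidermis, averaged 102.2 ± 2.61 CPM in odr1-2 in mannitol, 227.8 ± 1.70 in odr1-2 in water, 124.5 ± 5.26 in Col-0 in mannitol and 254.4 ± 4.66 in Col-0 in water. BXL2, a beta-xylosidase gene of the cell wall, averaged 30.3 ± 1.151, 152.6 ± 5.93, 46.5 ± 2.72 and 189.1 ± 3.48 CPM in the same order. These correlations are over the same 12 libraries and their 4 groups, and describe likeness of pattern.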

How the data were processed

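RNA was sequenced from seeds in 4 groups of 3 libraries. The deposited tables hold read counts per gene and TPM made by the authors. Per the submitters' processing notes, the build was TAIR10 and the tools were HTSeq 2.0.5, HISAT2 2.2.1 and fastp 0.23.1; per the labels' protocols libraries were made from poly-T captured RNA with random hexamers. Strand and multiple-mapping settings are not given in the sources used here. Names came from RefSeq (TAIR10.1) for 36632 of 36795 loci; 163 had none. Promoter coordinates and sequences are of TAIR10.1 alone.

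Counts were tested in edgeR 4.0.16 (R 4.3.3) by a robust quasi-likelihood fit of all 12 libraries with 4 group means, TMM scaling and filterByExpr (minimum count 10, total 15), two-sided, with Benjamini-Hochberg adjustment over 18413 genes and a threshold of 0.05. The SE is the log2 fold change divided by the root of F. Intervals were made from this SE by a normal approximation for each gene alone. They are not adjusted over the genes tested, so they and the adjusted p can differ. The p-values measure spread between these libraries, with a common coefficient of variation of 5.80%. Depth was 10060020 to 13693166 counts. TPM set genes side by side.

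The members, lists and tests were chosen with earlier results of these data known. Named were the 10 members, up to 3 called genes per list and comparison with the largest change (at least 1 CPM), of which examples are given, and the 5 genes most like the members. Values outside this rule (E2F3, RNR2A, KRP2, KRP6, CDC6 and CYCB1;1) were chosen after they were seen. Alternatives were DESeq2 1.42.0 size factors and Wald test, total count scaling, 2 other filters, a replicate block, limma 3.58.1 (voom, and trend on log2 of TPM plus 1 or plus 0.1), only the groups compared, and leaving out each library. Their use for list genes was added after the data were seen. The script was tested on simulated data. A protein comparison was not run.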

Additional observations from a re-analysis of the deposited data

Results flagged for a closer look

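For 4 genes the mannitol change differed between odr1-2 and Col-0 by the interaction term of the edgeR quasi-likelihood test, given as the change in odr1-2 minus that in Col-0. MCM7 gave 0.73 ± 0.20 (edgeR adjusted p = 0.0215) and RNR1 gave -0.37 ± 0.07 (edgeR adjusted p = 5.5e-05). EMB2813 (AT1G67320), which encodes the large primase subunit, gave 0.75 ± 0.23 (edgeR adjusted p = 0.0473), a call that was lost in 15 of the 21 alternatives that apply to the interaction, among them DESeq2 (0.75, adjusted p = 0.0578) and limma-voom (0.74, adjusted p = 0.0624). AUR2 (AT2G25880) gave -0.82 ± 0.07 (edgeR adjusted p = 4.8e-14), and its partner on the other strand, AT2G25890, gave -0.87. The causes were not tested.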

How the results depend on the processing

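Over 22 alternatives (21 for the interaction), 12 of them leaving out a library, the members gave 1090 values, of which 1023 kept direction and side of the threshold, 21 lost a call, 10 gained one and 36 changed sign. The 9 falls with mannitol in odr1-2, the 8 in Col-0, and the RNR1 interaction kept their calls in all. Leaving out a library, the members lower in odr1-2 in water numbered 3 to 6 (6 with all), those higher in odr1-2 in mannitol 0 to 1 (0 with all), and those with a higher interaction 0 to 1 (1 with all). The stricter filter gave 2 members higher in odr1-2 in mannitol (MCM7 and TSO2), and both fits on TPM gave 0 with a higher interaction. No sign change was of a called value. RNR1 with mannitol in Col-0 was -0.0142 on log2 of TPM plus 1 and -0.0143 on TPM plus 0.1. In odr1-2 against Col-0 in mannitol, MCM4 was -0.0386 and MCM5 -0.0332 with total count scaling, -0.0443 and -0.0307 on TPM plus 1, and -0.0519 and -0.0332 on TPM plus 0.1. The MCM2 interaction was 0.0054 with DESeq2 size factors, 0.0050 with the stricter filter, 2.7e-05 with the replicate block, 0.0077 with limma-voom and 0.0037 with DESeq2. Leaving out each library in turn, the values that changed sign ranged as follows. TSO2 with mannitol in Col-0 ran from -0.133 to 0.0316. In water, MCM2 ran from -0.102 to 0.0488 and MCM5 from -0.0599 to 0.00341. In mannitol, MCM2 ran from -0.164 to 0.0567, MCM4 from -0.143 to 0.119 and MCM5 from -0.119 to 0.166. For the interaction, MCM2 ran from -0.119 to 0.101, MCM5 from -0.0899 to 0.194 and MCM6 from -0.226 to 0.0481. Same-numbered libraries did not deviate together (18 correlations, -0.0227 to 0.0652), so the numbers are not read as pairs; with the replicate block the members' counts were 9 lower with mannitol in odr1-2, 8 in Col-0, and 3 lower in odr1-2 in mannitol, as without it. On TPM plus 0.1 the median of all genes in odr1-2 with mannitol was -0.11, relative to which the members' falls are smaller by that amount. On TPM plus 1, 2519 genes rose and 5152 fell there, against 3907 and 3919 with TMM. In odr1-2 against Col-0 in mannitol TPM plus 1 gave 2909 higher and 4264 lower, against 3779 and 3603, and for the interaction TPM plus 0.1 gave 97 and 471, against 199 and 491. Of 1970 values for named list genes, 105 lost their call and none changed sign. Genes of the other lists lower with mannitol numbered 15 in odr1-2 and 22 in Col-0 with the stricter filter, which tests fewer genes, against 25 and 35. The causes of the other shifts were not tested. Depth limits PCNA1 and MCM6 most, with as few as 28 and 42 counts in a library.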
